A study of Homo sapiens with 6 samples.

Results

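The 10 genes described here encode G protein-coupled receptors through which hormones, transmitters and lipids tune insulin secretion. They were taken by name: GLP1R, GIPR, GCGR, FFAR1, FFAR4, GPR119, ADRA2A, SSTR2, SSTR5 and CHRM3. All 10 were found among the 60671 Ensembl gene identifiers that each count file holds. The study measured bulk RNA in EndoC-βH1 cells, a line of human β cells of fetal pancreatic origin, labelled as wild type in both groups. Cells received the vehicle DMSO in 3 samples or 1 µM AZD7762, an inhibitor of the checkpoint kinases CHEK1 and CHEK2, in the other 3. Either was present through 1 h of starvation at 0.5 mM glucose and through the following 1 h of stimulation, for which the labels name 0.5 mM or 20 mM glucose without saying which each library received. All samples come from a single line, and the study's methods call replicates of in vitro work independent in general. The labels do not say whether these samples came from separate cultures, and the p-values measure the spread between them.

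In β cells, glucose metabolism triggers insulin release and these receptors raise or lower it. GLP1R, GIPR and GCGR bind peptides of the glucagon family, and GPR119 binds lipid amides and monoacylglycerols. These act mainly through the stimulatory G protein Gs, which raises cAMP. FFAR1, a receptor for long-chain fatty acids, and CHRM3, the muscarinic receptor for acetylcholine, act mainly through Gq and release stored calcium. ADRA2A, which binds adrenaline and noradrenaline, and the somatostatin receptors SSTR2 and SSTR5 act through Gi proteins, lower cAMP and restrain secretion. FFAR4 is a further receptor for long-chain fatty acids, best known in the pancreas from δ cells.

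The libraries held between 20486391 and 29402440 counts, and the floor of detection was set at 3 counts. Scaled to 1000000 counts per library (CPM), this floor was between 0.102 and 0.146. Of all genes, 17649 passed the filter on low counts and were tested with edgeR's quasi-likelihood test. A gene is named as called when its p, adjusted over all 17649 genes by the Benjamini-Hochberg method, was under 0.05. This held for 125 genes (0.708%), 63 higher and 62 lower with AZD7762. When libraries were scaled by their totals alone, 149 genes were called, 59 higher and 90 lower. All 10 β cell markers checked lay above the floor in every library, and 1 was called, MAFA, a transcription factor of mature β cells, higher by 1.24 on the log2 scale (adjusted p = 1.33e-04, edgeR). Among markers of other cells, the acinar and duct genes PRSS1, CELA3A and MMP7 had no count in any library, and 6 of 12 genes of such other pancreas cells were at the floor. Others of these 12 were present. The duct gene CFTR had between 2 and 15 counts, with the lowest in AZD7762 replicate 1. The acinar gene CPA1 averaged 21.8 ± 0.827 CPM in the controls and 25.7 ± 1.57 in the treated samples, which lay above the controls (adjusted p = 0.308, edgeR), and the collagen gene COL1A1 had between 230 and 330 counts. The 12 summed to between 32.5 and 39.2 CPM with DMSO and between 37.4 and 41.6 with AZD7762. The 5 δ cell markers summed to between 256 and 288 CPM with DMSO and between 297 and 325 with AZD7762. Most of this sum was SST, the somatostatin gene. Of the others, HHEX, LEPR and RBP4 had log2 fold changes of -0.19, -0.08 and 0.12 in groups that overlapped, BCHE was at the floor, and none of the 4 tested was called (edgeR). GCG, the hormone gene that defines α cells, had between 28 and 41 counts in each library. In bulk RNA, fewer cells of a type and less RNA per cell cannot be told apart, and the part of these markers in the results was not tested.

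No receptor gene was at the floor of detection. All 10 had more than 3 counts in every library, although GCGR came close, with 4 counts in AZD7762 replicate 2 and 14 at most. GLP1R had between 12 and 26 counts and SSTR5 between 15 and 33. At the other end, SSTR2 had between 3442 and 5618 counts and FFAR1 between 2223 and 3928. Together the 10 genes held between 0.0393% and 0.047% of all counts of a library. GCGR was the 1 gene that did not pass the filter on low counts, so that 9 were tested.

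**Figure D1:**
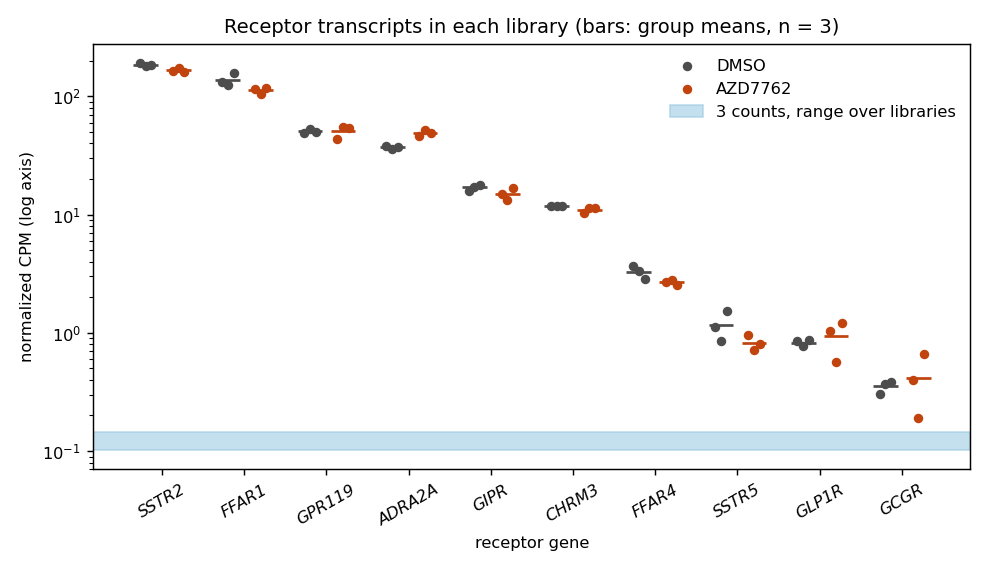
Normalized CPM (log axis) of each receptor gene in each of the 6 libraries, 3 with DMSO (grey) and 3 with AZD7762 (orange), with bars at group means; the blue band spans 3 counts over the libraries. SSTR2 and FFAR1 lie above 100 CPM, GLP1R, SSTR5 and GCGR near or under 1 CPM, and every point lies above the band.

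For the order given here, levels of different genes were compared per exon length, as CPM per kilobase of exon (RPKM). Rankings by count or CPM elsewhere also depend on gene length. FFAR1 (mean 22.4 RPKM, range 18.9 to 28.1 over the 6 libraries) and SSTR2 (22.3, range 20.6 to 24.2) stood highest, above 87.4% and 87.3% of the genes tested. Their ranges overlapped, so that neither could be placed above the other. GPR119 (11.4 RPKM) and ADRA2A (11.1 RPKM) followed, with ranges that overlapped over the 6 libraries. Within the controls GPR119, at 11.1 to 11.9 RPKM, lay clear above ADRA2A at 9.31 to 9.80 RPKM, while with AZD7762 the ranges overlapped, at 9.81 to 12.3 for GPR119 and 11.9 to 13.5 for ADRA2A. Both lay clear of FFAR1 and SSTR2 above and of GIPR (3.16 RPKM) below. CHRM3 (0.751 RPKM) and FFAR4 (0.736 RPKM) could not be told apart. SSTR5 had 0.367 RPKM and lay clear of both its neighbours. GLP1R (0.132 RPKM) and GCGR (0.119 RPKM) came last with overlapping ranges, above only 3.46% and 2.8% of the genes tested. In all, 5 of the 9 neighbouring pairs had ranges that did not overlap. With the longest annotated transcript in place of the summed exons, SSTR2 stood above FFAR1 and GCGR above GLP1R, each pair still overlapping. CHRM3 then lay clear of FFAR4, while SSTR5 overlapped GCGR.

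Read as a sum of RPKM over the 10 genes, receptors for lipids (FFAR1, FFAR4 and GPR119) held between 48.1% and 51.4% in the DMSO libraries. With AZD7762 they held between 44.8% and 47.1%. The Gi-coupled ADRA2A, SSTR2 and SSTR5 held between 42.8% and 46.3% with DMSO and between 46.7% and 50.2% with AZD7762. The lipid share was the larger in every control and in AZD7762 replicate 3, and the smaller in AZD7762 replicates 1 and 2. Shares of the same sum move against each other, and their differences were not tested. The glucagon family receptors held between 3.92% and 5.15%, most of it from GIPR, and CHRM3 between 0.997% and 1.07%. The glucagon family and CHRM3 ranges pool both groups. All ranges leave out the uncertainty of the length used, on which the shares depend. With the longest annotated transcript, GIPR averaged 4.70 RPKM in place of 3.16, and CHRM3 1.24 in place of 0.751. FFAR1 and SSTR2 alone held between 63.0% and 65.8% with DMSO and between 57.5% and 60.9% with AZD7762. Neither gene was called, and the sum includes the higher ADRA2A, so that this share is no separate measure.

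**Figure D2:**
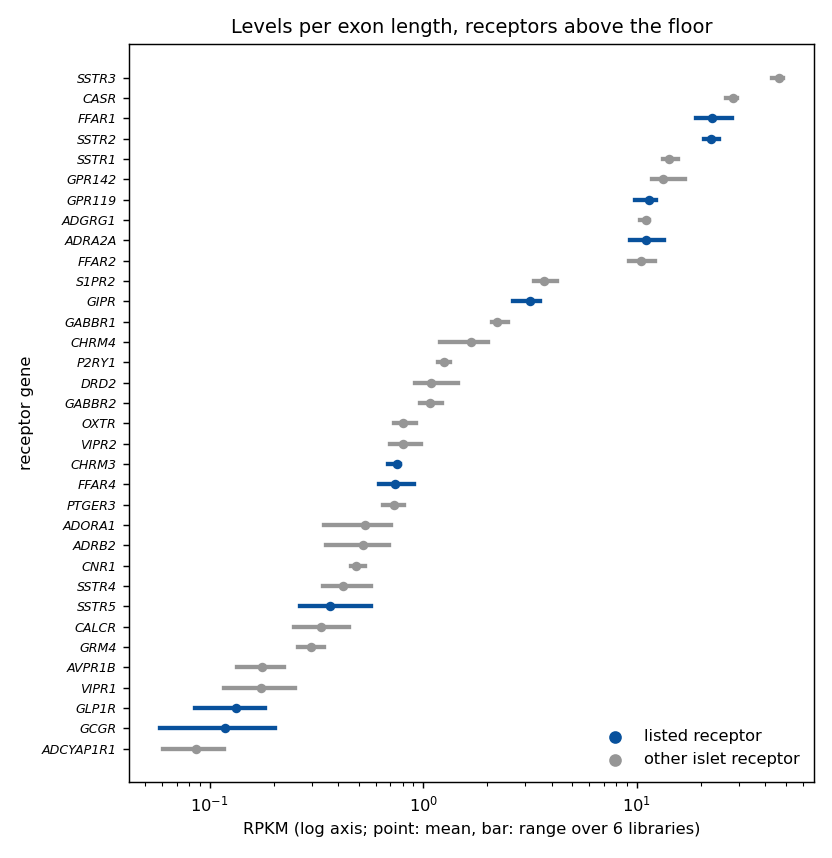
RPKM (log axis) of the 10 receptor genes (blue) and of the other islet receptor genes above the floor in every library (grey), with points at the mean and bars from the lowest to the highest of the 6 libraries. FFAR1 and SSTR2 rank behind SSTR3 and CASR only by this summed exon length, and GLP1R and GCGR lie near the bottom. With the longest annotated transcript, not drawn here, ADGRG1 averaged 23.5 RPKM, above SSTR2 at 22.8 and FFAR1 at 22.4.

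ADRA2A was the 1 receptor gene of the 9 tested that was called, against 0.357% of all genes called higher. ADRA2A (ENSG00000150594) lies on chromosome 10 of GRCh37 from 112836787 to 112840665, with 3879 bases of exon and no overlap with another gene's exons. With DMSO, replicates 1, 2 and 3 had 38.0, 36.1 and 37.1 normalized CPM. With AZD7762 they had 46.0, 52.2 and 49.0. The 3 treated samples lay above all 3 controls, and the lowest treated value exceeded the highest control by more than the controls differed among themselves. The mean went from 37.1 ± 0.949 to 49.1 ± 3.11 CPM (SD, n = 3 in each group). The fold change was 1.32, with a 95% interval from 1.19 to 1.47. On the log2 scale this was 0.40 with a standard error of 0.0681, and the adjusted p by edgeR's quasi-likelihood test was 0.0127. By p, ADRA2A ranked 86 of the genes tested. The call depended on single samples. The adjusted p in edgeR's test was 0.0561 without DMSO replicate 1, 0.0818 without DMSO replicate 2 and 0.0803 without AZD7762 replicate 2, with log2 fold changes of 0.42, 0.38 and 0.35.

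A ratio of counts within a library needs no scaling between libraries. The count of ADRA2A was 0.200, 0.199 and 0.203 of that of SSTR2, another Gi-coupled receptor, in DMSO replicates 1, 2 and 3. With AZD7762 this ratio was 0.281, 0.302 and 0.304, higher than in every control. The mean ratio was 0.201 ± 0.00234 with DMSO and 0.296 ± 0.0123 with AZD7762 (SD, n = 3). This ratio was chosen after the values had been seen, and it combines the higher level of ADRA2A with the lower one of SSTR2. Against FFAR1, ADRA2A counted 0.270 ± 0.0299 with DMSO and 0.437 ± 0.0501 with AZD7762. The ratio to FFAR1 likewise combines the higher level of ADRA2A with the lower one of FFAR1. In DMSO replicates 1, 2 and 3 it was 0.286, 0.289 and 0.236.

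The promoters of ADRA2A, the gene that was called, and of FFAR1, the gene next by p, are given as RefSeq sequence of GRCh38.p14, from 250 bases before to 50 bases after the annotated start on the plus strand. They span chr10:111076779-111077078 and chr19:35347652-35347951. Capitals mark TGACG, the core letters of a cAMP response element, the TATA box letters TATAAA, and CCAAT, each sought on both strands.
ADRA2A: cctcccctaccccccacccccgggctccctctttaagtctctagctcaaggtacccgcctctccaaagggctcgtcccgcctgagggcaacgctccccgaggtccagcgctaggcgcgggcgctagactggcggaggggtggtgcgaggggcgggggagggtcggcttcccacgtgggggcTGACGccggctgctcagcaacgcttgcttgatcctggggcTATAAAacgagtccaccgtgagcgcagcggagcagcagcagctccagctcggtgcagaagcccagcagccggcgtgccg
FFAR1: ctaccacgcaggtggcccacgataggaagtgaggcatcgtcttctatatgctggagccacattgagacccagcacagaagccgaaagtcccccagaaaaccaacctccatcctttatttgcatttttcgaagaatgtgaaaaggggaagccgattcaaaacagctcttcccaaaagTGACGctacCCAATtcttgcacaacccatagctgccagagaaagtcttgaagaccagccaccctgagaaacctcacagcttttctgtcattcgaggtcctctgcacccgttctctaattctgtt

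Counted from the annotated start as position 0, TGACG begins at position -69 in ADRA2A and at position -74 in FFAR1. TATAAA begins at position -29 in ADRA2A and is not in the FFAR1 window, where CCAAT begins at position -65. TGACG was found in 4 of the 10 receptor promoters, which besides these were those of SSTR2 and SSTR5, and in 25% of 27305 promoters of this length. TATAAA was found in ADRA2A alone of the 10, and in 12% of all promoters. The palindrome TGACGTCA, which contains TGACG, was in none of the 10 and in 1.98% of all. The G+C content was 69.3% for ADRA2A and 49.0% for FFAR1. These matches describe the letters and were not tested as sites.

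FFAR1 (ENSG00000126266, chromosome 19 of GRCh37, 35838805 to 35844766) encodes the fatty acid receptor also known as GPR40. It had 133, 125 and 157 normalized CPM in DMSO replicates 1, 2 and 3. In the AZD7762 replicates it had 115, 106 and 118 CPM. The 3 treated samples lay below all 3 controls, of which replicate 3 stood apart upward. The mean was 138 ± 16.8 CPM with DMSO and 113 ± 6.31 with AZD7762, a fold of 0.815 with a 95% interval from 0.720 to 0.923. The log2 fold change was -0.29 (standard error 0.0823, unadjusted p = 0.00365, adjusted p = 0.205 in edgeR's test), so that FFAR1 was not called. It was called when trends with G+C content and exon length were taken out of each library (log2 fold change -0.33, adjusted p = 0.00436, edgeR), a fit that called 1.25% of genes, 0.703% lower. It was also called when no filter on low counts was used (-0.30, adjusted p = 0.004, edgeR), where 0.95% of genes were called and 0.521% were called lower. With the replicate number as a block it was called as well, alone (-0.29, adjusted p = 0.00572, edgeR) and together with the G+C trend (-0.32, adjusted p = 1.92e-04, edgeR). These fits called 2.14% and 3.21% of genes, 1.12% and 1.47% lower. Without DMSO replicate 3 the log2 fold change was -0.19, the smallest in size of the fits that left out a sample, and FFAR1 was called in none of these.

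GPR119 (ENSG00000147262, chromosome X, 129513423 to 129519648) differed least of the 9. The DMSO replicates had 49.4, 52.7 and 49.9 CPM, and the AZD7762 replicates 43.5, 54.7 and 53.9 CPM. The groups overlapped, and AZD7762 replicate 1 was the lowest of all 6. The means were 50.6 ± 1.78 and 50.7 ± 6.23 CPM (SD, n = 3), and the 95% interval of the fold ran from 0.880 to 1.14. The sign of the difference turned with the sample left out. FFAR4 (ENSG00000186188, chromosome 10, 95326422 to 95364237), with between 54 and 109 counts, averaged 3.29 ± 0.408 CPM in the controls and 2.68 ± 0.137 CPM in the treated samples. Its treated samples, at 2.53 to 2.80 CPM, lay just below the lowest control at 2.88 CPM. The fold was 0.808 with an interval from 0.644 to 1.02 (adjusted p = 0.551, edgeR).

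SSTR2 (ENSG00000180616, chromosome 17, 71161149 to 71172772), the highest of the 10 by count, encodes a somatostatin receptor. It had 190, 182 and 182 CPM in the DMSO replicates. In the AZD7762 replicates it had 163, 173 and 161 CPM, all below the controls. The mean was 185 ± 4.64 CPM with DMSO and 166 ± 6.25 with AZD7762. The fold was 0.898 with a 95% interval from 0.824 to 0.978 (log2 fold change -0.16, unadjusted p = 0.0180, adjusted p = 0.390, edgeR), and SSTR2 was not called. Of its exon length, 3.55% overlaps another gene on the same strand. SSTR5 (ENSG00000162009, chromosome 16, 1122747 to 1131454), the most G+C-rich of the 10 at 68.1%, had 33, 23 and 32 counts with DMSO and 24, 15 and 17 with AZD7762. These were 1.17 ± 0.346 and 0.821 ± 0.123 CPM, in groups that overlapped. Its interval was the second widest, from a fold of 0.480 to 1.10 (log2 fold change -0.46, adjusted p = 0.632, edgeR). Without DMSO replicate 3 the log2 fold change was -0.25, and without DMSO replicate 2 it was -0.66.

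Of the glucagon family receptors, GIPR and GLP1R were tested and neither was called. GIPR (ENSG00000010310, chromosome 19, 46171479 to 46186980), the receptor for the incretin GIP, had 16.0, 17.1 and 17.9 CPM in the DMSO replicates and 14.8, 13.4 and 16.8 CPM in the AZD7762 replicates. The groups overlapped through AZD7762 replicate 3, and the fold was 0.884 with an interval from 0.763 to 1.02 (log2 fold change -0.18, adjusted p = 0.601, edgeR). Without AZD7762 replicate 2 the log2 fold change was -0.11. GLP1R (ENSG00000112164, chromosome 6, 39016557 to 39059079), the receptor for the incretin GLP-1, had 25, 21 and 18 counts with DMSO and 26, 12 and 26 with AZD7762. Its mean level was 0.827 ± 0.0481 CPM in the controls and 0.941 ± 0.334 CPM in the treated samples, of which replicate 2 lay below all controls and the other 2 above them. The fold was 1.15 with an interval from 0.744 to 1.76 (log2 fold change 0.20, adjusted p = 0.876, edgeR). The log2 fold change was 0.11 without AZD7762 replicate 1 and 0.43 without AZD7762 replicate 2, and its sign turned without AZD7762 replicate 3 (-0.011). The glucagon receptor gene GCGR (ENSG00000215644, chromosome 17, 79762008 to 79771884) had 9, 10 and 8 counts with DMSO and 10, 4 and 14 with AZD7762. Without the filter, its log2 fold change was 0.24 with a 95% interval from -0.61 to 1.09 (adjusted p = 0.903, edgeR).

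CHRM3 (ENSG00000133019, chromosome 1, 239549865 to 240078752) had nearly the same level in the 3 controls, 11.7, 11.7 and 11.8 CPM. With AZD7762 it had 10.3, 11.4 and 11.4 CPM, all below the controls. The fold was 0.938 with an interval from 0.819 to 1.07 (log2 fold change -0.09, adjusted p = 0.797, edgeR). Without AZD7762 replicate 1 the log2 fold change was -0.05. Of its exon length, 1.86% overlaps genes on the opposite strand.

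Across the 9 genes tested, 1 was higher by the test and 8 were not called, with 2 log2 fold changes above 0 and 7 below. The median was -0.16, beside 0.0076 for all 17649 genes, of which 47.6% lay below 0. At an unadjusted p under 0.05 there were 3 receptor genes, ADRA2A upward and FFAR1 and SSTR2 downward, beside 9.68% of all genes, 4.43% upward and 5.25% downward. The groups did not overlap in 5 of the 9, ADRA2A upward and FFAR1, FFAR4, SSTR2 and CHRM3 downward, beside 6.79% of all genes upward and 8.25% downward.

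**Figure D3:**
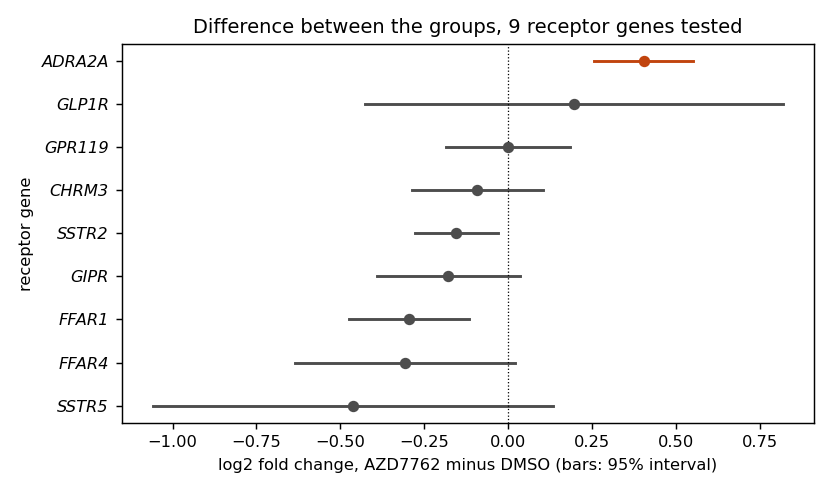
Log2 fold change, AZD7762 minus DMSO, of the 9 receptor genes tested, with bars for the 95% interval of the fit. ADRA2A (0.40, orange) is the 1 called gene, the intervals of FFAR1 and SSTR2 also leave out 0, and those of SSTR5 and GLP1R are the widest.

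**Figure D4:**
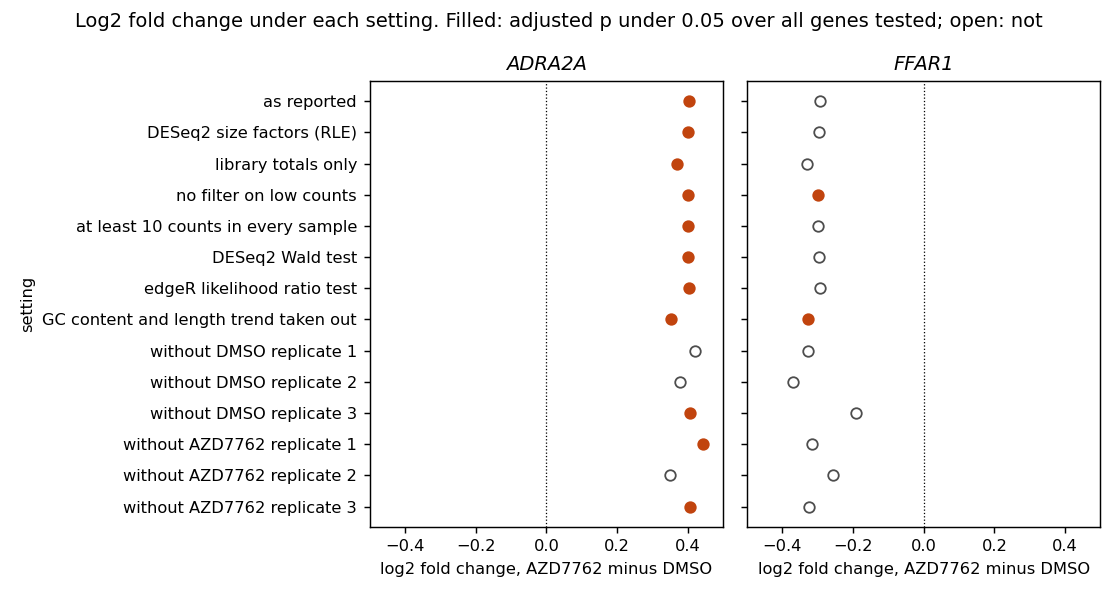
Log2 fold change of ADRA2A and FFAR1 as reported and under 13 other settings, leaving out those with a replicate block, filled where the adjusted p was under 0.05. ADRA2A stays between 0.35 and 0.44 and is open without DMSO replicate 1, DMSO replicate 2 or AZD7762 replicate 2, while FFAR1 stays between -0.37 and -0.19 and is filled without the low-count filter and with the G+C content trend taken out.

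The wider signalling chain was described with 5 lists. None of their 90 genes tested was called in edgeR's quasi-likelihood test, beside 0.708% of all genes, and 7 had an unadjusted p under 0.05, beside 9.68%. DESeq2 called 0, beside 0.992% of all genes, and edgeR's likelihood ratio test called 1, FFAR2, beside 1.51%. In edgeR's quasi-likelihood test FFAR2 had a log2 fold change of -0.32 (unadjusted p = 0.00121, adjusted p = 0.109). Its treated samples lay below the controls. Of 45 further islet receptors, 14 were at the floor, among them the adrenergic ADRA2C and ADRB1, the muscarinic CHRM1 and CHRM2 and the melatonin receptor MTNR1A. For the 24 tested, the log2 fold changes had their median at -0.10, and 16 lay below 0. The calcium-sensing receptor CASR had 343 ± 6.93 CPM with DMSO and 338 ± 19.1 with AZD7762. The somatostatin receptor SSTR3 had 224 ± 3.96 and 208 ± 6.37 CPM, with the treated samples below the controls (log2 fold change -0.11, adjusted p = 0.573, edgeR). Per length, SSTR3 was the most abundant of all the receptors listed, at 46.2 RPKM.

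Among proteins that act on receptors, the kinases GRK2 and GRK5 had the highest CPM, GRK2 at 101 ± 6.71 CPM with DMSO against 106 ± 7.37, and GRK5 at 68.7 ± 1.05 against 70.2 ± 1.48 with AZD7762. Per summed exon length, RAMP1, which modifies receptors of the calcitonin family, stood highest at 27.5 RPKM, above GRK2 at 15.7 and ARRB2 at 15.6 RPKM. This order depended on the length used. With the longest annotated transcript, ARRB2 had 37.4, RAMP1 36.8 and GRK2 23.1 RPKM. The 9 genes tested in this list, which also holds the arrestins ARRB1 and ARRB2 that take receptors off the surface, had a median of 0.08, with 7 above 0. The 23 G protein subunits had a median of 0.05, and GNAS, which encodes the α subunit of Gs, went from 4298 ± 301 to 4584 ± 155 CPM (adjusted p = 0.747, edgeR). GNB1, a β subunit, had 860 ± 34.6 and 910 ± 21.4 CPM. Among 29 effectors, with a median of 0.013, the cAMP-binding kinase subunit PRKAR1A had 489 ± 32.4 and 518 ± 31.1 CPM. KCNJ3, a potassium channel subunit opened by Gi-coupled receptors, had 242 ± 6.93 and 243 ± 9.70 CPM.

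Of 11 genes for ligands or their supply, 5 were tested, and GIP, VIP and DBH had no count in any library. SST, the somatostatin that SSTR2, SSTR3 and SSTR5 bind, had the highest CPM of these. Its mean was 215 ± 12.4 CPM in the controls and 254 ± 11.5 CPM in the treated samples, and the 3 treated samples lay above the controls. Its log2 fold change was 0.24 (standard error 0.0633, unadjusted p = 0.00237, adjusted p = 0.160, edgeR), so that SST was not called. SST is also a δ cell marker and makes up most of the δ sum given above, so that this sum is no separate measure. SLC18A3, which loads acetylcholine into vesicles, had 37.4 ± 10.9 and 39.3 ± 6.38 CPM.

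**Figure D5:**
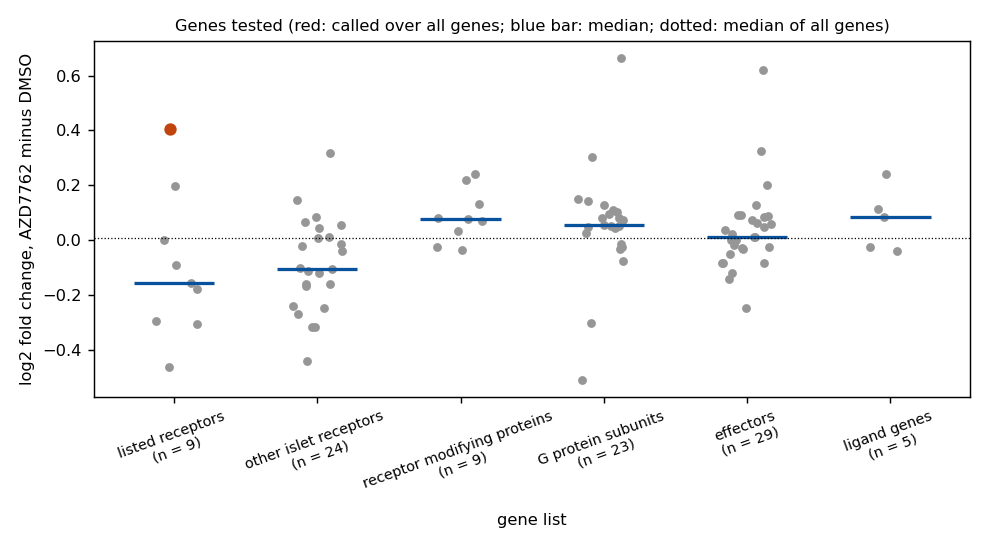
Log2 fold change, AZD7762 minus DMSO, of each gene tested in 6 lists, with blue bars at the list's median and a dotted line at the median of all genes. ADRA2A (red) is the 1 called gene in any of them, and the listed receptors (-0.16) and the other islet receptors (-0.10) have medians below 0.

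For each receptor gene tested, the gene whose log2 CPM had the highest Pearson's r with it over the 6 libraries was sought among the 14395 or 14396 other genes whose log2 CPM averaged 1 or more. With so many candidates and 6 points, high values are common, and between 18 and 90 genes had an r over 0.95 with each receptor. Both groups enter r, so a difference between the groups that both genes share raises it. The gene most like ADRA2A was BMP4 (r = 0.998), a secreted growth factor that was itself called (1.28 on the log2 scale, adjusted p = 1.07e-04 by edgeR). This r is therefore no measure separate from the higher level of both with AZD7762. FFAR1 was followed most closely by ENSG00000273066 (r = 0.998) and SSTR2 by COIL (r = 0.995), neither of which was called. GLP1R paired with EPSTI1 (0.992), GIPR with ENSG00000287262 (0.990), FFAR4 with GMFB (0.994) and GPR119 with FAM111A-DT (0.991). SSTR5 paired with TBC1D22B (0.991) and CHRM3 with DPP8 (0.996).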

How the data were processed

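EndoC-βH1 samples were grouped by the treatment in their titles. Per the study's methods, the authors checked reads with FastQC (0.10.1), trimmed them with cutadapt (1.18), mapped them to the GRCh37 build and ran HTSeq-count. The deposited files hold raw counts per gene. The aligner, the annotation release and the strand setting are not given in the sources used here, and libraries were made with either of a stranded and an unstranded kit, not told apart by sample.

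Symbols, positions, exon lengths and G+C content were taken from a GRCh37 annotation (GENCODE) whose release may differ from the authors', so that 58646 of 60671 identifiers matched. The other 2025 held 0.153% of counts. The test was edgeR 4.0.16 in R 4.3.3 (filterByExpr, TMM scaling with factors from 0.983 to 1.02, quasi-likelihood test, treatment as the only term, Benjamini-Hochberg over 17649 genes). Alternatives included DESeq2 1.42.0. Standard errors came from the fold change on the log2 scale over the root of F, and 95% intervals use the fit's degrees of freedom. Normalized CPM are counts per 1000000 of the TMM-scaled library total, and RPKM divide them by exon length. The floor of 3 counts covers counting error only. Depth was 20486391 to 29402440 counts. The procedures were tested on simulated counts.

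The receptor genes and lists were chosen with earlier results of these data known. The genes named are the 10 receptors, called genes of the other lists with the 2 uncalled genes of highest CPM in each, and the gene most similar to each receptor by Pearson's r of log2(CPM + 0.5). Others, such as the receptors named at the floor and the marker genes singled out, were named after their values were seen. PECAM1 of the marker lists was not matched. The α cell markers as a list are not reported here.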

Additional observations from a re-analysis of the deposited data

How the results depend on the processing

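Against 125 genes called, there were 330 with low counts kept, 267 by the likelihood ratio test in edgeR, 220 with G+C content and length trends taken out, 378 with the replicate block and 567 with both of the last. Leaving out 1 sample gave from 77 (without AZD7762 replicate 1) to 168 genes. Against 1 receptor gene called, 2 were called (ADRA2A and FFAR1) without a filter, with the replicate block, with the G+C trend taken out and with both of these. Leaving out 1 sample gave 0 or 1. ADRA2A was called in 12 of 15 alternatives, with adjusted p from 9.45e-05 to 0.0818 and log2 fold changes from 0.35 to 0.44. FFAR1 was called in 4 of 15, with adjusted p from 1.92e-04 to 0.653. The other 7 tested were called in none. Against 0 genes called in the other lists, there were 1 (SST) without a filter, 1 (FFAR2) with the likelihood ratio test, 1 (FFAR2) with the G+C trend taken out, 2 (SST and FFAR2) with the replicate block, and 3 (these and SSTR3) with both.

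The sign turned for GPR119 with the G+C trend taken out (0.034), also with the replicate block (0.028), and it ranged from -0.065 to 0.092 with 1 sample left out. For GLP1R it ranged from -0.011 to 0.43. The sign held in all 15 alternatives for the other 7. With floors of 3 or 10 counts in every library, 10 and 9 receptor genes lay above. Neighbours separated by level numbered 5 with either length.

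The replicate numbers are shared by the groups. Deviations from the group means correlated at 0.0831, 0.175 and 0.278 for numbers 1, 2 and 3. Between unlike numbers they correlated at -0.336 to 0.238. DMSO replicates 2 and 3 correlated best with their own number, and DMSO replicate 1 with AZD7762 replicate 2 (0.238). The study's methods name no pairing, so the reported fit did not take the numbers as pairs. These correlations cannot decide whether they are. Why these settings moved the counts was not tested. Low counts limit GLP1R, GCGR and SSTR5 most.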
